A study of Mus musculus with 6 samples.

Results

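The zinc finger genes whose mouse symbol is Zfp and a number were examined at their 2 ends, where open chromatin had been called in the mouse embryonic stem cell line R1. Of the 69689 accessible regions of the study, 301 had their midpoint within 1 kb of either limit of such a protein-coding gene on the 19 autosomes. Zfp42 was left out. The members were thus selected on where regions had been called, so that each of them lies at a gene end by definition and no test was made of that. On the autosomes, 68288 regions were called, and 12818 of them lay at the end of some protein-coding gene. The 359 Zfp genes were divided by their neighbours. A gene was called grouped when another Zfp gene lay within 200 kb of it, and solitary when none did. There were 226 grouped genes, in 51 groups, and 133 solitary genes. Grouped genes held 191 of the 301 regions, solitary genes held 110, and no region lay at both kinds.

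Accessibility was measured by ACC-seq, a Tn5 transposase assay that tags open DNA, in 6 libraries of wild-type R1 cells, which had been grown on fibroblast feeders with serum, LIF and 2i and freed of feeder cells by replating. Fix_1,6-Hex cells (2 libraries) spent 30 s in 10% (w/v) 1,6-hexanediol, which can dissolve condensates of proteins and nucleic acids, and were then fixed for 10 min in 1% formaldehyde with the alcohol still present. Fix cells (2 libraries) had the same fixation without hexanediol. Fresh cells (2 libraries) were not fixed, and their nuclei were tagmented at 37 °C rather than at the 55 °C of both fixed groups, for 30 min in every group. The question was how accessibility answers to a change in condensates. The deposited table gives each region a position on mm10 and the name of 1 of 9 clusters, with no value for any library. No difference between treatments can therefore be given for a Zfp gene, depth is unknown, and the sources used here do not say what accessibility pattern a cluster number stands for. Feeder markers could not be checked, since the table has no levels. Below, a covered gene is one with a region at an end, and the range after a share is its exact binomial (Clopper-Pearson) 95% interval over genes or regions. These intervals cover counting only, and shares without one are plain descriptions. Neighbouring genes are not independent replicates, so differences are described and were not tested.

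Most genes of this kind encode proteins with tandem C2H2 zinc fingers, which read DNA sequence, and many of them also carry a KRAB domain. KRAB zinc finger proteins are known to bring TRIM28 (KAP1) and the histone methyltransferase SETDB1 to DNA, and in embryonic stem cells this silences retroviral elements and guards imprinted loci. The family grew by tandem duplication, which left its genes side by side in groups on several chromosomes. Not every Zfp symbol belongs to a KRAB gene, and protein domains were not assigned here.

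Cluster 5 was the name whose share differed most between grouped and solitary genes, so promoters under its regions are shown first. Promoters of cluster 1 genes follow, from the cluster whose share at grouped genes lay furthest below that at solitary genes. The genes shown are the first Zfp genes by position, up to 2 of each kind, with a region of the named cluster. Each runs 5′ to 3′ on the strand of the gene, from 250 bases before to 50 bases after its annotated start, and comes from RefSeq on GRCm38.p6, the assembly that mm10 names. Capitals mark matches, on either strand, to the 6 short motifs searched. These were the TATA box TATAAA, the NF-Y box CCAAT, the GC box GGGCGG bound by SP factors, the ETS site CCGGAAG, the NRF1 half-site GCATGCGC and the YY1 site AAGATGGC. The first 3 below belong to cluster 5. They are grouped Zfp956 (chr6:47953140-47953439, plus strand), solitary Zfp951 (chr5:104860019-104860318, minus strand) and solitary Zfp830 (chr11:82764095-82764394, plus strand), and all 300 bases of each lay inside the region.
Zfp956: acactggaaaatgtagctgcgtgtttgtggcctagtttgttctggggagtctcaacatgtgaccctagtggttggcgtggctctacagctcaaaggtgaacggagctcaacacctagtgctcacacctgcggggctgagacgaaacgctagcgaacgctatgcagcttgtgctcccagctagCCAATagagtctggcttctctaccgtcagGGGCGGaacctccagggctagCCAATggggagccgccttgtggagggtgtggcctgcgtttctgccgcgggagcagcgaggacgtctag
Zfp951: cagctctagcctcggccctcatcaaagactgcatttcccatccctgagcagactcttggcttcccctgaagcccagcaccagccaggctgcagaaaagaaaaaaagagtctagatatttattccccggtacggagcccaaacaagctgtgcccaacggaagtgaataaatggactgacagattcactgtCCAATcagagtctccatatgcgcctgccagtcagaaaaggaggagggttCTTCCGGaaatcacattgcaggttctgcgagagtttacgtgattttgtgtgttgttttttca
Zfp830: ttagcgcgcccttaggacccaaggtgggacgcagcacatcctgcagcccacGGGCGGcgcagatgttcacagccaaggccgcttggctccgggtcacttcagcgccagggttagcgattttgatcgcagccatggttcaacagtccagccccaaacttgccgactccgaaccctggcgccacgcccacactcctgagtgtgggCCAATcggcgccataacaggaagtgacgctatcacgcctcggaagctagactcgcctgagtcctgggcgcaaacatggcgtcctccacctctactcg
Zfp329, the next grouped gene of cluster 5, had its region at the 3′ limit, which its promoter does not reach, so that promoter is not shown. The next 4 belong to cluster 1. They are grouped Zfp334 (chr2:165388210-165388509, minus strand), grouped Zfp972 (chr2:177925601-177925900, minus strand), solitary Zfp770 (chr2:114201383-114201682, minus strand) and solitary Zfp697 (chr3:98382231-98382530, plus strand), with 300, 300, 228 and 64 of their bases inside the region.
Zfp334: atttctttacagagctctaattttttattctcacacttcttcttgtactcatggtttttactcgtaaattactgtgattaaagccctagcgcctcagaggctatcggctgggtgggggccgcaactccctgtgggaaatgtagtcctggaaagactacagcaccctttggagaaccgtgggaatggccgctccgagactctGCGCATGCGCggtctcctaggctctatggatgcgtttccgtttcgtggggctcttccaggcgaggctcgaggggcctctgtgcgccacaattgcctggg
Zfp972: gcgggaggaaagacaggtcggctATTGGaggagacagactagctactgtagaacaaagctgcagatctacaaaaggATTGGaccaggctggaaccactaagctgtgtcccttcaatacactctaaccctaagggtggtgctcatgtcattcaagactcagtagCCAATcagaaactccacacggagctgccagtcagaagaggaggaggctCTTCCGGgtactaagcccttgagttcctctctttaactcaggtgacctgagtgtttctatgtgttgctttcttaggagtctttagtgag
Zfp770: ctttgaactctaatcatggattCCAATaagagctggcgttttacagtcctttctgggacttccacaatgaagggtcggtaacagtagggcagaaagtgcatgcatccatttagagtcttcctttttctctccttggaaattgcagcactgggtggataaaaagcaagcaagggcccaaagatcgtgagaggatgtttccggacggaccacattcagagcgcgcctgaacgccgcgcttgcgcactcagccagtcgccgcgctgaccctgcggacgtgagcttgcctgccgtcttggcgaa
Zfp697: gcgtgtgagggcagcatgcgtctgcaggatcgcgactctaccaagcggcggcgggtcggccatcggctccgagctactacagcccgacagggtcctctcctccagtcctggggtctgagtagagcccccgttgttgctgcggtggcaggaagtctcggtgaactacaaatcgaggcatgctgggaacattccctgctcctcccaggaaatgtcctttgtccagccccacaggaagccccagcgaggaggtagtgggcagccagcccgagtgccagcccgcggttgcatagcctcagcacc
Zfp956 has 2 CCAAT boxes and 1 GC box, and Zfp830 has 1 of each. Zfp951 and Zfp972, on different chromosomes and in different clusters, both have a CCAAT box followed by CTTCCGG, the reverse complement of the ETS site. Zfp697 holds none of the 6 motifs in this window.

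Grouped and solitary Zfp genes had an accessible region at an end in nearly the same share of genes, and both shares were above that of protein-coding genes at large. A region was present at 176 of 226 grouped genes (77.9%, 71.9 to 83.1) and at 104 of 133 solitary genes (78.2%, 70.2 to 84.9), a difference of −0.32 percentage points (95% Newcombe interval −8.82 to 8.86). Together 280 of 359 Zfp genes were covered (78.0%, 73.3 to 82.2), against 62.5% of all 20665 autosomal protein-coding genes and 62.2% of the 20306 that are no Zfp gene. Of the Zfp genes, 253 had 1 region and 27 had 2. Where there were 2, they bore different cluster names at 25 genes and the same name at Zfp358 and Zfp174.

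The regions lay mainly where transcription starts. Strand was known for 300 Zfp genes. Of the 196 grouped ones, 153 had a region at the 5′ limit (78.1%, 71.6 to 83.6) and 17 at the 3′ limit (8.67%). Of the 104 solitary ones, 78 had a region at the 5′ limit (75%, 65.6 to 83.0) and 9 at the 3′ limit (8.65%). Among 16157 other coding genes the shares were 58.5% at the 5′ limit and 11.4% at the 3′ limit. An annotated start lay inside a region, of any midpoint, for 169 of 196 grouped genes (86.2%), for 95 of 104 solitary genes (91.3%) and for 62.7% of other genes. The typical member sat close to the limit, at a median midpoint distance of 191.5 bp.

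Counted as regions, the 301 members were spread over all 9 clusters. Cluster 8 held 70 of them (23.3%), against 22.0% of all gene-end regions. Cluster 4 followed with 44 (14.6%, background 11.7%), cluster 1 with 42 (14%, background 20.6%) and cluster 3 with 42 (14%, background 12.5%). Cluster 2 held 27 (8.97%, background 7.90%) and cluster 6 held 24 (7.97%, background 5.92%). The remaining regions were 22 of cluster 5 (7.31%, background 4.06%), 17 of cluster 9 (5.65%, background 9.99%) and 13 of cluster 7 (4.32%, background 5.34%). Clusters 2, 3, 7 and 8 thus lay close to the background, while clusters 1 and 9 were below it and cluster 5 above it. Per covered gene, 41 of 280 Zfp genes had a cluster 1 region (14.6%, 10.7 to 19.3), against 21.7% of other covered genes. For cluster 9 it was 17 of 280 (6.07%, 3.58 to 9.54), against 10.4% (9.84 to 10.9).

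Grouped and solitary genes parted at cluster 5. A cluster 5 region lay at 20 of 176 covered grouped genes (11.4%, 7.08 to 17), at 2 of 104 covered solitary genes (1.92%, 0.234 to 6.77) and at 4.37% (4.02 to 4.74) of 12634 other covered coding genes. The grouped share exceeded the solitary share by 9.44 percentage points (95% Newcombe interval 3.25 to 15.1). For each of the other 8 clusters the interval of the difference included 0. The widest of these gaps was that of cluster 1, at 23 of 176 grouped genes (13.1%) and 18 of 104 solitary genes (17.3%), a difference of −4.24 points (−13.6 to 4.14). Cluster 8 was at 46 grouped genes (26.1%) and 24 solitary genes (23.1%), cluster 4 at 29 (16.5%) and 17 (16.3%), and cluster 3 at 27 (15.3%) and 14 (13.5%). An interval that includes 0 does not show that the kinds are alike, and with these numbers gaps of 5 or more points would still fit inside all 8.

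**Figure D1:**
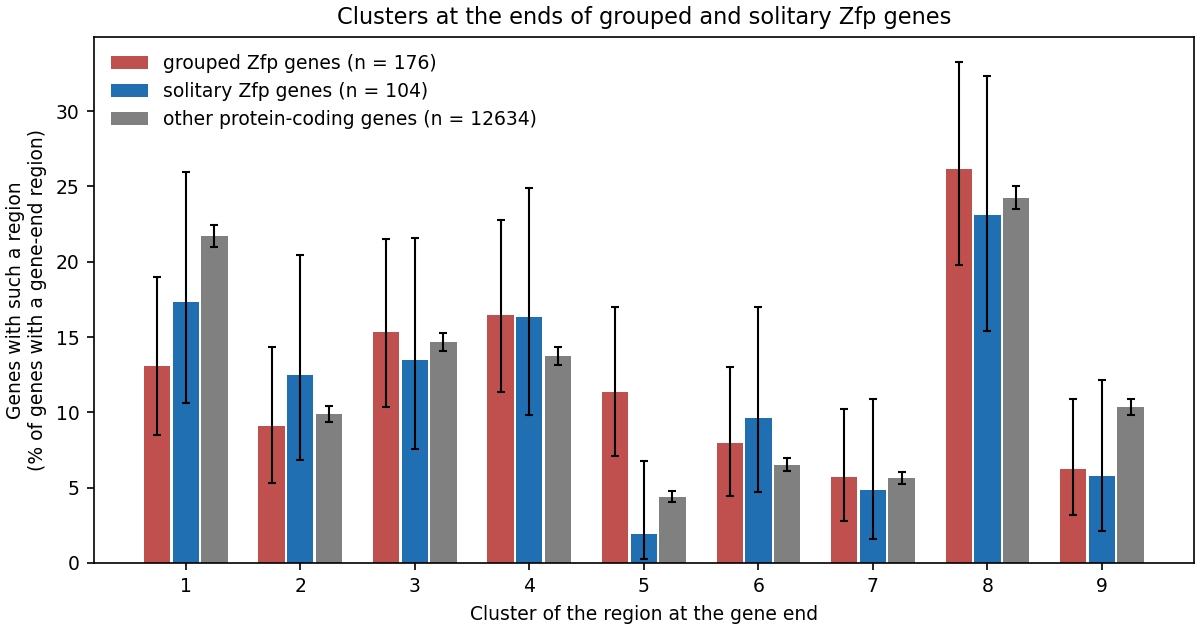
Share of covered genes (%) with a region of each cluster at an end, for 176 grouped Zfp genes, 104 solitary Zfp genes and 12634 other protein-coding genes; bars are shares and error bars exact binomial 95% intervals over genes. In cluster 5 the grouped bar stands at 11.4% and the solitary bar at 1.92%, and in clusters 1 and 9 both Zfp bars stand below that of other genes.

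The 20 grouped genes of cluster 5 did not come from 1 place. They belonged to 16 of the 51 groups, on 8 chromosomes, with at most 2 in a group. On chromosome 7 they were Zfp329, Zfp383, Zfp382, Zfp939, Zfp141 and Zfp689, and on chromosome 17 Zfp229, Zfp13, Zfp870 and Zfp763. Chromosome 8 had Zfp869, Zfp882 and Zfp617, and chromosome 13 had Zfp935, Zfp953 and Zfp273. The others were Zfp956 on chromosome 6, Zfp105 on chromosome 9, Zfp879 on chromosome 11 and Zfp35 on chromosome 18. Of the 18 with known strand, 17 had the region at the 5′ limit. Over all clusters, 153 of the 154 covered grouped genes with known strand had a region there. Zfp882 and Zfp617 are neighbours on chromosome 8, with regions of 972 bp (71908134 to 71909105) and 1222 bp (71922254 to 71923475). The region of Zfp879 was the narrowest of the set at 391 bp (chromosome 11, 50841396 to 50841786). That of Zfp13 was the widest at 3312 bp and also lay at an end of Zscan10, a SCAN-domain zinc finger gene. The solitary genes were Zfp951 (chromosome 5, 104859578 to 104860375, 798 bp) and Zfp830 (chromosome 11, 82763685 to 82764854, 1170 bp), whose region also served Cct6b, a chaperonin subunit gene. Coding genes of other names that lie within the spans of the groups had a cluster 5 region in 3 of 66 covered cases (4.55%, 0.947 to 12.7). The interval for these neighbours overlaps those of both kinds of Zfp gene.

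The share of cluster 5 was similar in groups of every size. It was 9 of 71 covered genes (12.7%) in groups of 2 to 4, 6 of 53 (11.3%) in groups of 5 to 8 and 5 of 52 (9.62%) in the 5 groups of 12 or more. Coverage itself was 71 of 90 (78.9%, 69.0 to 86.8), 53 of 60 (88.3%, 77.4 to 95.2) and 52 of 76 (68.4%, 56.7 to 78.6). Without the group of 12 on chromosome 4, the last class stood at 51 of 64 (79.7%, 67.8 to 88.7). Cluster 8 was at 17 of 52 covered genes of that class (32.7%, 20.3 to 47.1), 13 of 53 (24.5%) in groups of 5 to 8, 16 of 71 (22.5%) in groups of 2 to 4 and 24.2% of other covered genes, which lies within the first interval.

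In 4 of the 5 groups with most genes, several cluster names were found side by side. The group of 19 on chromosome 13 (67038594 to 67827000), which opens with Zfp712, Zfp708, Zfp759, Zfp455, Zfp458 and Zfp457 and ends with Zfp273, had 14 covered genes. Its 16 regions fell into 8 clusters, with 3 each of clusters 1, 3 and 6. The group of 18 on chromosome 17 (21383707 to 22456689), from Zfp677, Zfp54, Zfp51, Zfp53, Zfp52 and Zfp948 onwards, had 15 covered genes and 14 regions, 6 of them of cluster 8. The group of 15 on chromosome 7 (29768552 to 30169775) begins with Zfp84, Zfp30, Zfp790, Zfp940, Zfp420 and Zfp27, and 14 of its genes were covered. Cluster 8 was again its most frequent name, at 5 regions. Its member Zfp568, known to repress a placental Igf2 transcript in the embryo, had the widest region at a grouped gene, 5811 bp of cluster 4 (29980666 to 29986476). The other group of 12, on chromosome 7 (24081877 to 24587840) with Zfp180, Zfp112, Zfp235, Zfp114, Zfp111 and Zfp109 first, had 8 covered genes.

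The group of 12 on chromosome 4 (146449030 to 147849126) was almost bare. Among Zfp992, Zfp981, Zfp993, Zfp978, Zfp991, Zfp988 and the genes that follow them, Zfp933 alone had a gene-end region, of cluster 8. The span held 20 regions over 1400.1 kb, or 14.3 regions per Mb, against 28.5 per Mb over the autosomes and 53.7 per Mb over all Zfp groups combined. In all, 1 of 16 grouped genes on chromosome 4 was covered (6.25%), against 8 of the 11 solitary genes of that chromosome. In 4 groups no gene was covered. These were the pairs Zfp968 with Zfp965 and Zfp967 with Zfp973 on chromosome 2, and Zfp990 with Zfp980 and Zfp987 with Zfp600 on chromosome 4. In 27 of the 51 groups every gene was covered, and 23 of the 51 held only 2 genes.

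**Figure D2:**
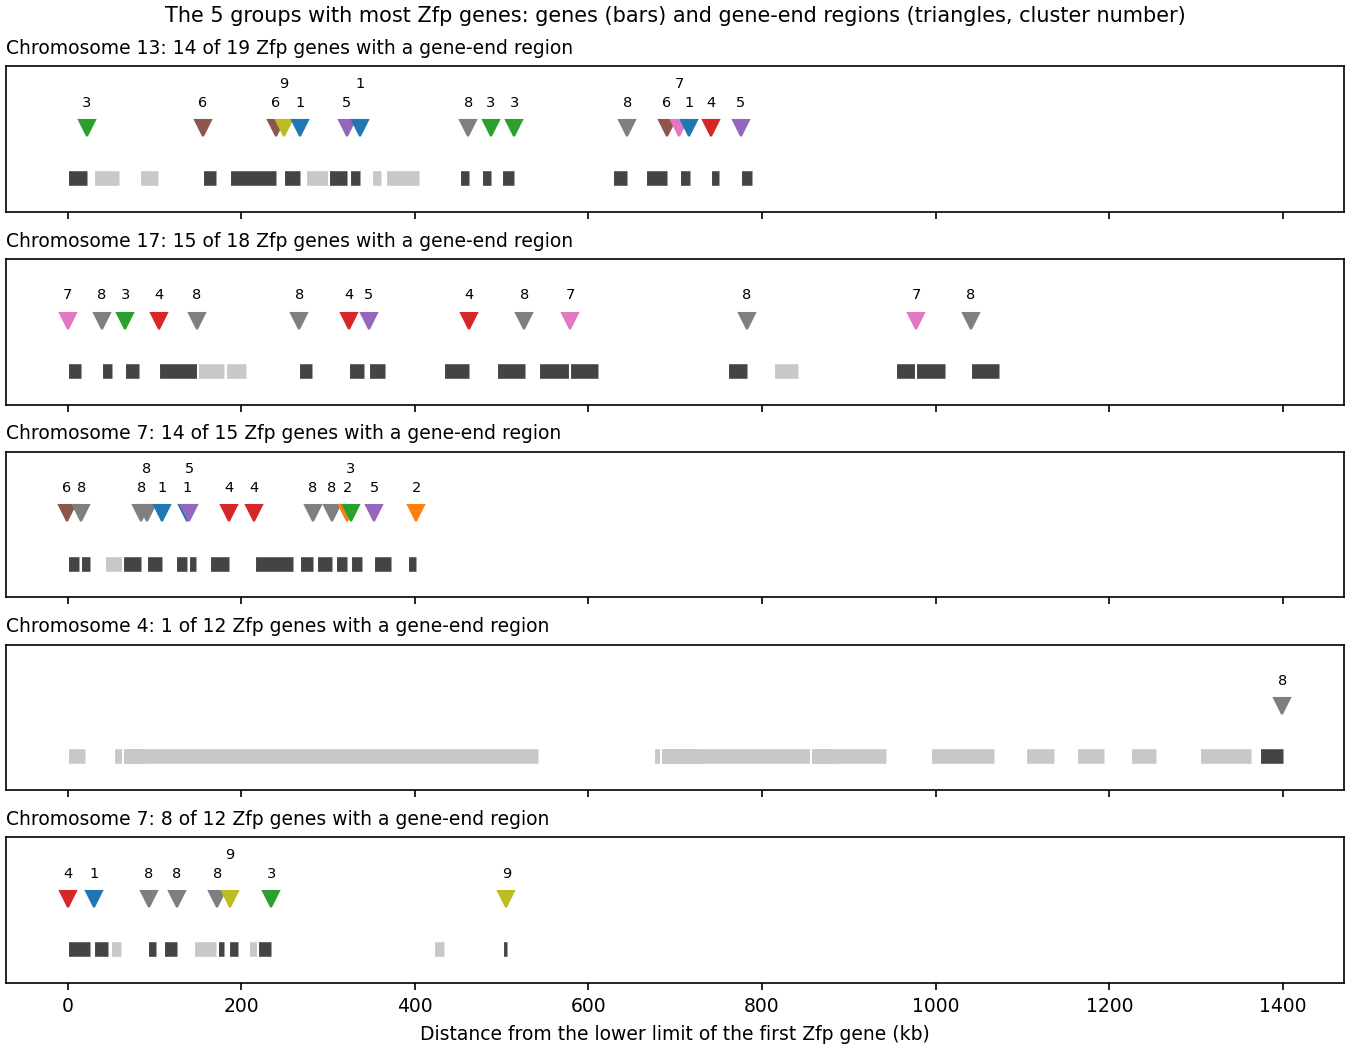
Maps of the 5 groups with most Zfp genes, as distance in kb from the lower limit of the first gene; bars are genes (dark with a gene-end region, pale without) and triangles gene-end regions coloured and numbered by cluster. Several cluster numbers stand in each group of chromosomes 13, 17 and 7, some of them in runs, and on chromosome 4 there is 1 triangle for 12 genes.

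**Figure D3:**
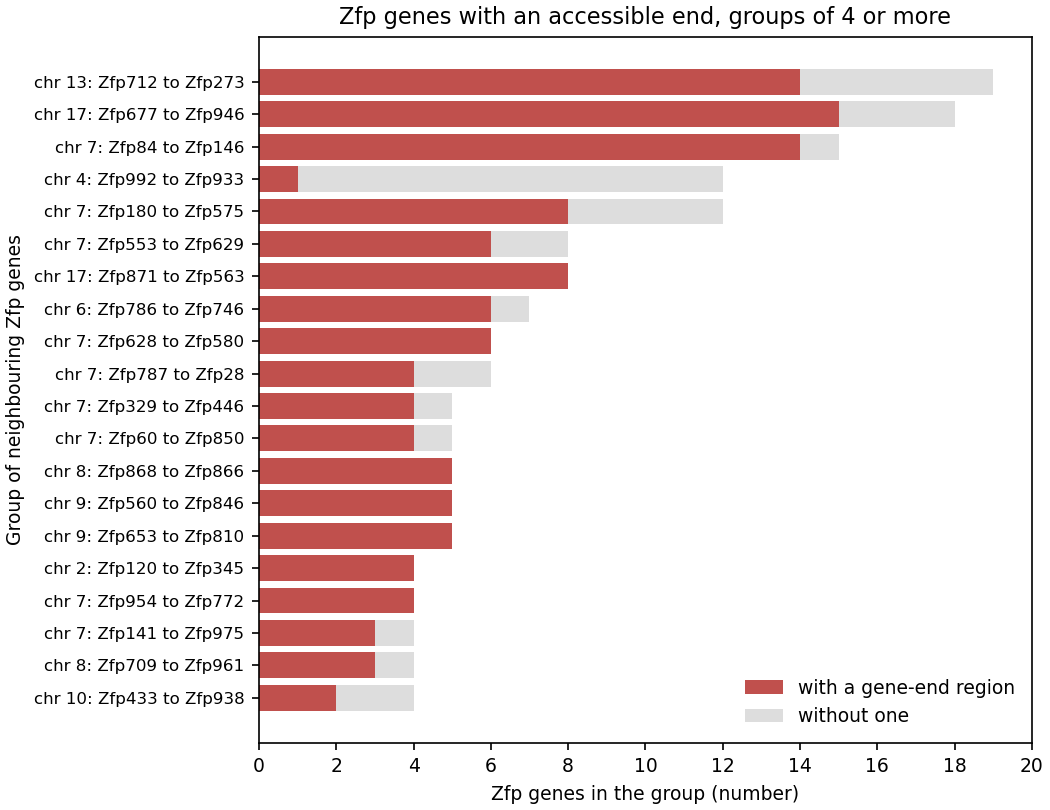
Number of Zfp genes with (red) and without (grey) a gene-end region in each group of 4 or more, ordered by size; each bar is 1 group, named by its first and last gene. The chromosome 4 group has 1 of 12 genes covered, and in the chromosome 17 group of 18 it is 15.

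Neighbouring Zfp genes bore the same cluster name about as often as neighbouring genes elsewhere. Of 175 adjacent pairs within the groups, 114 had both genes covered, 6 of them through a common region. Among the remaining 108 pairs, 23 shared a cluster name (21.3%), close to the 1430 of 7560 (18.9%) for all adjacent coding genes within the same distance. Cluster 8 accounted for 9 of the 23 and cluster 3 for 6. A few groups leaned to 1 name. In the chromosome 17 group from Zfp871 to Zfp563, 5 of 9 regions were of cluster 8. In the chromosome 7 group from Zfp787 to Zfp28, 3 of 4 were of cluster 2, and in the chromosome 8 group from Zfp868 to Zfp866 it was 3 of 6. Cluster 3 took 3 of 5 regions between Zfp329 and Zfp446 on chromosome 7. These groups were picked after their values were seen.

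Promoters of grouped genes were poorer in CpG than those of solitary genes by their medians. The 300-base promoters of 196 grouped genes had a median GC content of 53.3%, those of 104 solitary genes 58.7% and those of 16157 other coding genes 56.7%. The median ratio of observed to expected CpG was 0.564 in grouped, 0.720 in solitary and 0.596 in other promoters. The quartiles ran from 0.396 to 0.726 in grouped and from 0.468 to 0.866 in solitary promoters, so the sets overlap broadly. Within each set, covered genes had the higher ratio. It was 0.607 for covered and 0.459 for uncovered grouped genes, 0.733 and 0.547 for solitary genes, and 0.759 and 0.198 for other genes. Uncovered Zfp genes thus had more CpG by median than uncovered genes elsewhere. Uncovered here means only that no region had its midpoint within 1 kb of a limit. An annotated start lay inside a region for 169 of 196 grouped and 95 of 104 solitary genes, while 154 and 82 were covered. Among 16157 other genes it was 10124, with 10035 covered. Some uncovered Zfp genes thus had an accessible start, and these medians do not compare open with closed promoters. Grouped genes of cluster 5 had a median ratio of 0.579 (18 promoters), within the range of 0.395 in cluster 6 to 0.725 in cluster 3 for grouped genes.

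**Figure D4:**
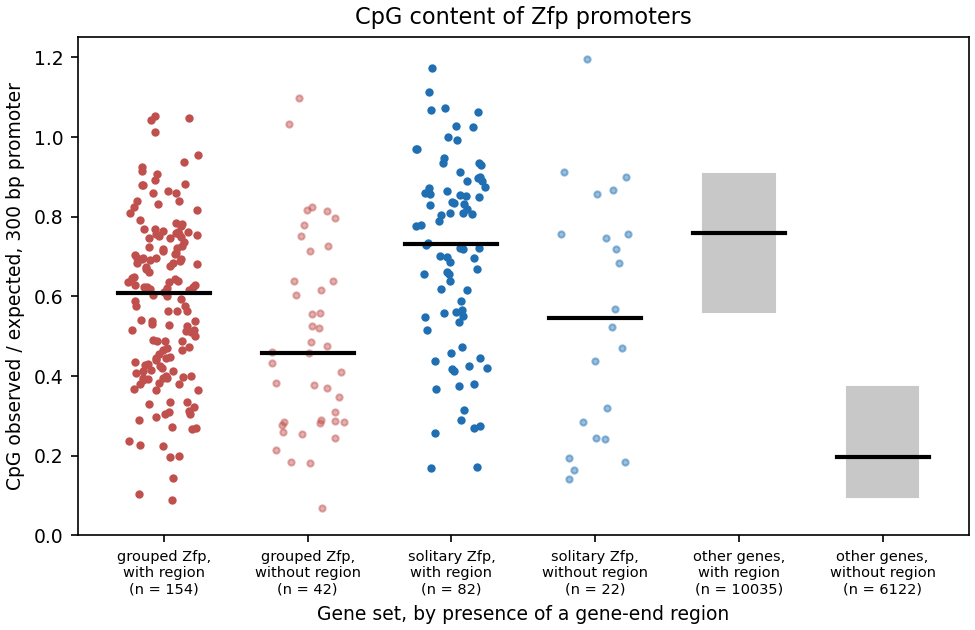
Observed to expected CpG ratio in 300-base promoters of Zfp genes (points, 1 per gene) by kind and by presence of a gene-end region; black lines are medians, and for other protein-coding genes grey boxes span the quartiles. Covered genes lie higher in each set, with medians of 0.607 and 0.459 for grouped, 0.733 and 0.547 for solitary and 0.759 and 0.198 for other genes.

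Of the short motifs, CCAAT and GGGCGG ran in opposite directions between the kinds. CCAAT was in 107 of 196 grouped promoters (54.6%), 43 of 104 solitary promoters (41.3%) and 38.9% of other promoters. GGGCGG was in 38.8% of grouped, 52.9% of solitary and 47.4% of other promoters. CCGGAAG was in 23.5%, 22.1% and 12.1% of the same 3 sets. TATAAA was less frequent than elsewhere, in 4.08% of grouped and 9.62% of solitary promoters, against 13.7% elsewhere. Part of the TATAAA gap goes with coverage, since uncovered other genes held TATAAA in 24.8% of promoters. Among covered genes, TATAAA was in 4.55% of grouped, 8.54% of solitary and 6.90% of other promoters, so solitary genes then stood above the others. GGGCGG was then in 38.3%, 58.5% and 65.3%, with solitary genes below the others and a wider gap for grouped genes. CCAAT changed little, at 53.2%, 42.7% and 38.9%. CCGGAAG was then in 22.7%, 23.2% and 17.1%, so its gap between Zfp and other genes was smaller. Over all promoters, GCATGCGC was found in 6.12%, 2.88% and 3.63%, and AAGATGGC in 4.59%, 7.69% and 3.17%. Promoters that share long stretches with others, 34 of 196 grouped and 6 of 104 solitary, each count as a case here and in the CpG medians. A match of letters is no evidence that the factor binds.

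Further words were counted after the promoters printed above had been read, so they are a description of these sequences only. AAATGTAGT, which stands in lower case in the Zfp334 promoter, or its reverse complement was in 29 of 196 grouped promoters (14.8%, 10.1 to 20.6). It was in 2 of 104 solitary promoters (1.92%, 0.234 to 6.77), those of Zfp189 and Zfp317, and in 0.879% of other promoters. Grouped carriers stood mostly on chromosomes 7 and 13, among them Zfp84, Zfp940, Zfp383 and Zfp260 in the group of 15, and 26 of the 29 were covered. Of other genes with the word, 120 of 142 were covered. With or without the word, 154 of 196 grouped and 10035 of 16157 other genes with a promoter were covered. Regions of the grouped carriers bore all 9 cluster names, cluster 8 at 6 genes, clusters 1 and 6 at 5 each and clusters 4 and 5 at 4 each. CCAATCAG was in 16.3% of grouped, 13.5% of solitary and 4.86% of other promoters. TGTCACTCA was in 11.2%, 4.81% and 0.730%. A CCAAT box followed 20 to 70 bases later by CTTCCGG, as in Zfp951 and Zfp972, was in 12 grouped promoters (6.12%), 5 solitary promoters (4.81%) and 0.755% of others. The distance was 46 to 49 bases in 14 of the 17, among them Zfp951 (49), Zfp972 (48), Zfp958 (46) and Zfp938 (47). It was 28 in Zfp53, 33 in Zfp597 and 60 in Zfp277. Zfp968, Zfp965, Zfp966, Zfp967 and Zfp973, all at 48, have near-identical stretches in other promoters, so they are not separate cases. Zfp951, Zfp640, Zfp936 and Zfp977, all at 49, also share part of their promoter sequence with other promoters. Between CCAAT and CTTCCGG, the printed promoters of Zfp951 and Zfp972 both read ctgccagtcagaa. Whether any of the 17 arose separately was not tested, so they are not a count of independent cases.

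Some promoters share long stretches with others. A stretch of 50 bases that also occurs in another promoter at a different place was found in 34 of 196 grouped promoters (17.3%), in 6 of 104 solitary promoters (5.77%) and in 8.01% of others. Grouped genes with such a stretch were covered in 13 of 34 cases (38.2%, 22.2 to 56.4), and those without it in 141 of 162 (87.0%, 80.9 to 91.8). Solitary genes without it were covered in 78 of 98 cases (79.6%, 70.3 to 87.1), and other genes without it in 66.6%. With such a stretch, 4 of 6 solitary genes (66.7%, 22.3 to 95.7) and 130 of 1294 other genes (10.0%, 8.46 to 11.8) were covered. The lower coverage was thus not particular to grouped Zfp genes. The pairs Zfp968 with Zfp965 and Zfp967 with Zfp973 shared between 95.2% and 100% of their 50-base words with other promoters and were not covered. On chromosome 4, 9 of 12 grouped promoters had shared words, and 1 of the 12 genes was covered. The shared part there was often small, from 0.797% of words in Zfp981 and Zfp985 to 47.0% in Zfp987 and 94.0% in Zfp600. Zfp993 and Zfp982 had no shared word and were not covered either. Reads from shared stretches can be hard to place. How they were handled is not stated in the sources used here, and their part in the low coverage was not tested. Zfp942 with Zfp943 and Zfp944 with Zfp758 on chromosome 17 are divergent pairs that each share 1 cluster 7 region, of 644 bp and 1326 bp, and 70.1% to 82.1% of their words were shared. The gap at cluster 5 was as large without them. Among covered genes without a shared word it was at 18 of 141 grouped genes (12.8%, 7.74 to 19.4) and at 1 of 78 solitary genes (1.28%, 0.0325 to 6.94).

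Regions were narrower at grouped genes by median, with ranges that overlap. The median width was 837 bp (200 to 5811) at grouped genes, 1035 bp (261 to 6500) at solitary genes and 1048 bp over all gene-end regions. A region also lay at the end of a gene of another name in 9 of 191 cases at grouped genes (4.71%, 2.18 to 8.76) and in 18 of 110 at solitary genes (16.4%, 10.0 to 24.6). Of all gene-end regions, 12.9% lay at the ends of more than 1 coding gene. That measure is wider, since the Zfp counts leave out regions shared only by Zfp genes, as in 6 adjacent grouped pairs. Grouped genes were somewhat shorter, with a median length of 16.1 kb against 21.3 kb. Width followed cluster name within the family. Cluster 9 regions had a median of 299 bp and cluster 7 of 480 bp, and the medians of clusters 2, 3 and 4 were 1126, 1139 and 1073 bp. The 3 narrowest, at Zfp13 (200 bp), Zfp457 (219 bp) and Zfp747 (223 bp), all belonged to cluster 9 and lay at 3′ limits. The 3 widest were those of Zfp532 (6500 bp, cluster 6), Zfp568 (5811 bp, cluster 4) and Zfp703 (3832 bp, cluster 8).

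**Figure D5:**
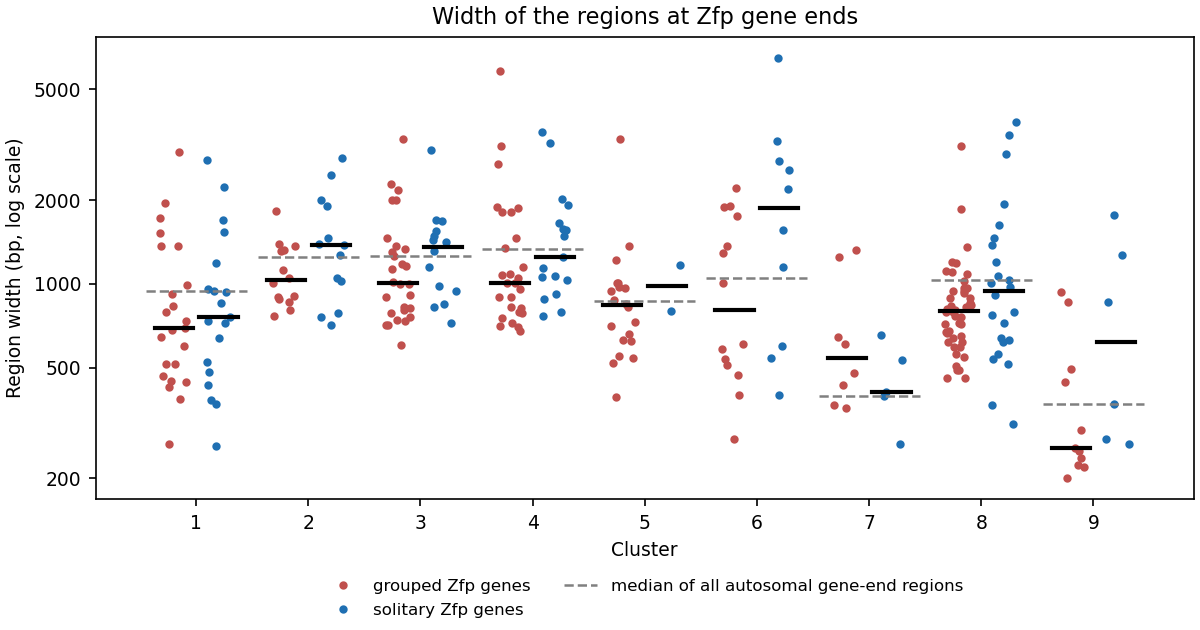
Width of each member region (bp, log scale) by cluster, for grouped and solitary Zfp genes; points are regions, black lines medians per kind, and dashed lines the median of all autosomal gene-end regions of that cluster. Points of clusters 7 and 9 lie lowest, with medians of 480 and 299 bp over both kinds.

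By cluster, the first genes along the genome show how mixed each name was. Cluster 1 opened with grouped Zfp334, Zfp972 and Zfp239 and solitary Zfp770, Zfp697 and Zfp296. Cluster 2 had Zfp345, Zfp784 and Zfp580 first, the last 2 on 1 shared region, and solitary Zfp142, Zfp687 and Zfp655. For cluster 3 they were Zfp120, Zfp212 and Zfp637 and solitary Zfp408, Zfp106, an RNA-binding protein gene, and Zfp64. Cluster 4 began with Zfp605, Zfp157 and Zfp68 and solitary Zfp281, Zfp661 and Zfp267. Cluster 6 had Zfp937, Zfp971 and Zfp773 and solitary Zfp770, Zfp292 and Zfp189, and cluster 7 had Zfp524, Zfp772 and Zfp866 and solitary Zfp408, Zfp341 and Zfp422. In cluster 8 they were Zfp442, Zfp933 and Zfp932 and solitary Zfp970, Zfp704 and Zfp639, and in cluster 9 Zfp663, Zfp316 and Zfp853 and solitary Zfp618, Zfp362 and Zfp541. Zfp770 and Zfp408 appear under different names at their 2 ends.

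Members with a known role also fell into different clusters. Zfp57, a KRAB protein that keeps methylation at imprinting control regions, had a 383 bp cluster 1 region at its 3′ limit (chromosome 17, 37009742 to 37010124), which also lies at an end of the myelin gene Mog. Zfp445, another guardian of imprints, had a cluster 1 region of 445 bp at its 5′ limit, shared with Zkscan7. Zfp809, which silences endogenous retroviruses through the proline tRNA primer site, had a cluster 4 region of 2698 bp (chromosome 9, 22224713 to 22227410). Zfp281, a regulator of pluripotency, was also in cluster 4 (1571 bp). Zfp143, an activator at promoters, had a cluster 3 region of 3029 bp (chromosome 7, 110059267 to 110062295), and Zfp296, a stem cell factor, had one of cluster 1 (739 bp). Zfp36, which encodes the mRNA decay factor tristetraprolin, had a single region, of cluster 1 and 1539 bp, at its 3′ limit. Zfp207, needed for spindle assembly, and Zfp326, part of a complex that couples elongation to splicing, were both in cluster 8, as were Zfp932 and Zfp819. Zfp110 and Zfp260 were in cluster 3, Zfp661, Zfp148 and Zfp384 in cluster 4, Zfp91, a ubiquitin ligase gene, in cluster 2 and Zfp292 in cluster 6. Zfp609 was in cluster 1, and Zfp703, a co-repressor gene, had regions of clusters 8 and 1 at opposite ends. No gene-end region was called for Zfp217, Zfp462, Zfp369, Zfp335, Zfp423 and Zfp521, of which Zfp423 and Zfp521 encode related partners of EBF factors.

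Genes of the silencing machinery with which KRAB proteins act were covered in 18 of 19 cases (94.7%, 74.0 to 99.9), against 62.5% of all coding genes, Dnmt1, the maintenance DNA methyltransferase, having no region within 1 kb of its annotated limits. Cluster 4 was at 8 of the 18 (44.4%, 21.5 to 69.2), the largest of 9 shares in this chosen list, against 13.7% of other covered genes. Clusters 2, 6 and 9 were at 3 genes each, clusters 1 and 8 at 2 each and cluster 3 at 1. The 8 include Trim28, the shared co-repressor (3753 bp, besides 1571 bp of cluster 6 at the opposite end), and Cbx1, an HP1 protein. Chaf1a and Chaf1b, subunits of a histone chaperone, are also among them. Chaf1b and Morc3, another of the 8, lie close together on chromosome 16, so the 8 are not all separate cases. Setdb1 and its partner Atf7ip had cluster 8 regions of 483 and 650 bp. A region of cluster 5 or 7 was at 0 of the 18, an interval of up to 18.5% that includes the 4.37% and 5.61% of other covered genes.

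Over 11.1 Mb the group spans held 597 regions, with 0 to 209.4 regions per Mb in single groups. At no coding gene end lay 361 of them, or 32.5 per Mb, against 23.1 per Mb for such regions over the autosomes. Of these 361, 23.5% were of cluster 1 (19.3 to 28.3), against 18.3% of 55470 such regions over the autosomes, and 10.5% were of cluster 8 (7.56 to 14.2), against 6.08%. Cluster 7 held 15.2% (11.7 to 19.4), against 22.0%, and cluster 9 held 25.5% (21.1 to 30.3), against 30.1%. Cluster 5 held 5.82% (3.64 to 8.75), against 5.13%. The difference between these regions and the Zfp gene ends of the same spans was not tested.

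The rule has 2 thresholds. Just inside 1 kb lay regions of Zfp598 (977.5 bp), Zfp647 (982 bp) and Zfp580 (986.5 bp), all of cluster 1, and just outside lay regions of Zfp35 (1004 bp, cluster 9), Zfp787 (1009.5 bp, cluster 9) and Zfp959 (1010 bp, cluster 4). Just inside the 200 kb gap were Zfp433 (179935 bp), Zfp629 (157870 bp) and Zfp467 (156015 bp), and just outside were Zfp516 and Zfp236 (216773 bp from each other) and Zfp414 (234455 bp).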

How the data were processed

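Per the submitters' processing notes, cutadapt 1.18, Bowtie2 2.3.3.1, Picard and SAMtools 1.6 were used, with mm10. The authors deposited 1 table of positions with cluster names, not numeric values. Region calling and clustering are not given in the sources used here. Depth, and the precision it gives, is unknown.

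Starts, counted from 0 in the table, were counted from 1. Gene limits, strand and promoters came from RefSeq tables (GRCm38.p6), and 300 of 359 Zfp genes matched a promoter. Protein features and gene models with exons were not used here. Intervals are exact binomial, or Newcombe for differences, at 95%. No p-values were computed, and there were no replicate values. Named genes are the first 3 per cluster and kind by position, the first 6 of each of the 5 largest groups, genes with known roles, and threshold and extreme cases. Others were named after their values were seen. The members and lists were chosen with earlier results of these data known. The counting was tested on simulated regions. Tools were Python 3.11.15, SciPy 1.17.1, numpy 2.4.6, pandas 2.3.3 and, for figures, matplotlib 3.10.9.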

Additional observations from a re-analysis of the deposited data

How the results depend on the processing

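In all, 11 other ways of counting were tried, and each other autosome was left out in turn, which was chosen after seeing the data. The excess of cluster 5 at grouped genes kept its sign, with an interval above 0, in all 30 counts of it, the reported one included, and ran from 7.97 to 10.8 points without each autosome. These counts share most of their genes and are not independent of each other. Cluster 5 was singled out as the largest of 9 differences, and its intervals take no account of that choice. Of 435 values recomputed, 418 stayed within their interval and 17 moved out of it. A change of sign was counted only where the main interval left out 0, which was the cluster 5 difference alone, and it kept its sign. Differences of other clusters did change sign in some counts. That of cluster 8 went from 3.06 to −8.18 points with 1 gene per group. That of cluster 6 went from −1.66 to 2.92 points with a window of 500 bp. With a window of 500 bp, coverage was 68.6% for grouped and 63.9% for solitary genes, and cluster 6 was at 3.53% of covered solitary genes. With 2.5 kb, coverage was 85.4% for grouped and 90.2% for solitary genes. Cluster 1 was then at 21.2% of grouped genes, cluster 9 at 15.0% of grouped and 17.5% of solitary genes, and 12.6% of regions were of cluster 9. The background over all gene ends was taken at 1 kb only. Whether clusters 1 and 9 lay below it at other windows is therefore not known. Counting any overlap gave 86.5% coverage of solitary genes, and leaving out regions shared with another gene gave 65.4%. With 1 gene per group (47 genes), cluster 3 was at 23.4%, cluster 8 at 14.9%, and clusters 7 and 9 at 2.13% each of grouped genes. The differences from solitary genes were then 9.94 points for cluster 3 and −8.18 for cluster 8, both with intervals that include 0, and coverage of groups has no value in that count. No paired analysis was possible because the table holds no value per library.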
